A study of Homo sapiens with 4 samples.

Results

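The regions described here are the wide H3K4me3 peaks of ARID1A knockout MDA-MB-231 cells. They were selected on their deposited width, as the rows of the knockout peak list of 1000 bp or more, outside a 130 kb window of chromosome 1 whose 12 knockout peaks ran from 228701069 to 228783756. The list held 892 rows of that width, 8 of them in the window. The remaining 884 were 3.75% of the 23588 knockout peaks (exact Clopper-Pearson 95% interval 3.51 to 3.998%). They were set beside the 3339 knockout peaks of at least 500 and under 1000 bp outside the same window, called mid-width peaks here, and their positions were compared with the 36677 peaks of the control list. Width, tags and fold enrichment come from the library that chose the regions, so these values are a description. The control peaks come from a library that the choice did not use.

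H3K4me3, the trimethylated form of lysine 4 of histone H3, is found mainly on nucleosomes around active gene starts. It is written by SET1 and MLL family methyltransferases and removed by KDM5 demethylases, and broad stretches of it mark highly active or identity genes in many cell types. ARID1A is a DNA-binding subunit of the BAF form of the SWI/SNF complex, which moves and evicts nucleosomes at promoters and enhancers.

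The knockout group carried the label ARID1A knockout and the other group the label control. Both were taken as MDA-MB-231, an established triple negative breast cancer line, from the series title, although 3 libraries are labelled with a cell line name of a different final digit. Neither label gave a further treatment, a time, or the number of clones behind the knockout. Each genotype had 1 H3K4me3 immunoprecipitate (IP) and 1 input, so 4 libraries in all. The inputs are named so by title, although they carry IgG as antibody label. Whether they are plain input chromatin cannot be told from the labels. The knockout IP held 13391724 tags and the control IP 27748061, against inputs of 17890122 and 14878873 tags. With 1 library per group no difference had a replicate check, and no p-value is given. Intervals of tags cover counting error only. Intervals of shares, medians and differences treat the peaks of a list as independent draws. None covers variation between cultures or libraries. The labels mention no molecular identifiers, so tags need not be independent molecules. The deposited positions are on hg19. The gene annotation at hand was of another build, so the genes at these regions were not analysed here, and whether the widest peaks lie at gene starts was not tested.

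The wide knockout peaks carried many tags over a length that was still short for this mark. Their median width was 1197.5 bp (quartiles 1071 and 1412 bp) and the widest spanned 2911 bp. Together they covered 1.14 Mb, which was 11.1% of the length and held 9.90% of the tags of the knockout list. That was 1316840 tags, beside 13391724 in the whole knockout IP. The knockout list therefore counted nearly as many tags as the IP held, with little left outside peaks. The reason was not tested, and it bears on every knockout tag count and density given here. A wide peak held a median of 1288 tags (quartiles 755 and 1935), with a range of 25 to 7471. Mid-width peaks held a median of 710 tags (quartiles 341 and 1203).

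Per length the classes were close. The median density was 1038 tags per kb in the wide peaks (quartiles 611 and 1537), 992 tags per kb in the mid-width peaks (476 and 1675) and 1094 tags per kb over the whole knockout list (497 and 1877). Density also showed no trend with width among the wide peaks. Its median was 1052 tags per kb in the 443 peaks of 1000 to 1199 bp, 975 in the 276 of 1200 to 1499 bp, 1134 in the 135 of 1500 to 1999 bp and 876 in the 30 of 2000 bp or more. Across the 870 wide peaks that met exactly 1 control peak, Spearman's rho between width and density was -0.0055, a description across regions of 1 library. The additional tags of the wide peaks thus went with additional length at about the same density.

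A total of 110 wide peaks (12.4%, 10.3 to 14.8%) held more than 2 tags per bp. So did 573 of the mid-width peaks (17.2%) and 5235 of the whole knockout list (22.2%), and 0 of the 36677 control peaks, which allows a share of up to 0.0101%. The densest control peak reached 0.473 tags per bp, against 5.76 in the densest wide knockout peak. Density is an average over the called width, and the 2 lists differ in width. Control peaks had a median of 2968 bp, while 12977 knockout peaks outside the window were exactly 300 bp wide. The density values of the 2 lists are therefore not like for like. A stretch of DNA offers 2 start positions per bp, 1 on each strand, so above that density some tags inside a peak share a start position. Whether they are copies of 1 fragment was not tested.

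**Figure D1:**
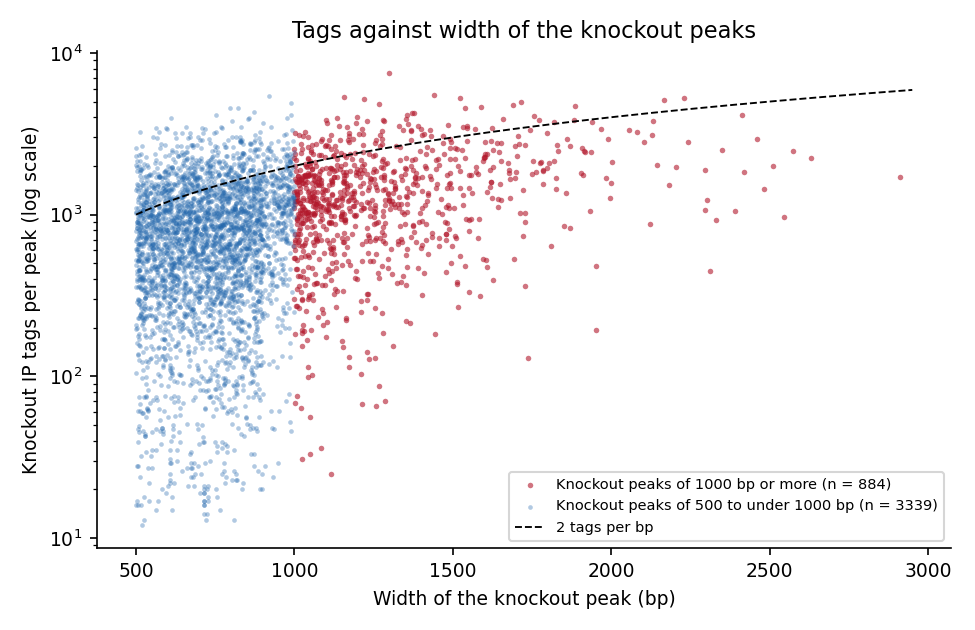
Tags of the knockout IP per peak (vertical axis, log scale) against peak width in bp, 1 point per peak, for the 884 knockout peaks of 1000 bp or more (red) and the 3339 mid-width peaks (blue). The dashed line marks 2 tags per bp, and 110 red points lie above it.

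Inside the wide peaks the place of the summit, the base with the highest pile of tags, varied. It fell in the outer 25% of the width at either end in 507 of 884 wide peaks (57.4%, 54.0 to 60.6%). It lay exactly 150 bp from an end, a distance of 0.5 times the fragment length set in the peak caller, in 114 wide peaks (12.9%). Among the 3339 mid-width peaks the summit was in the outer 25% in 1349 (40.4%) and exactly 150 bp from an end in 1042 (31.2%). The listed summits keep at least this distance from an end, so the width of a peak limits where its summit can fall. How much of these differences comes from width was not tested.

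The widest knockout peak lay on chromosome 2 from 37897380 to 37900290 and held 1698 tags over 2911 bp. The control peak there was 9804 bp wide with 2461 tags. The next was on chromosome 9 from 84301749 to 84304379, with 2250 knockout tags over 2631 bp, inside a control peak of 11417 bp with 2958 tags. A peak on chromosome 1 from 120835861 to 120838434 held 2464 knockout tags over 2574 bp, and its summit was 4 bp from the summit of a control peak of 9434 bp. All 10 of the widest peaks, between 2391 and 2911 bp, met a control peak, and the control peak was wider each time, at 5120 to 11417 bp. Of these 10, the one on chromosome 3 from 171177045 to 171179505 had the highest width relative to its control peak, with 2948 knockout tags and 48.1% of the control width of 5120 bp.

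The most tags were found on chromosome 7 from 1067151 to 1068448, where the knockout IP had 7471 tags (exact Poisson interval 7303 to 7642) in 1298 bp and the control peak 570 tags (524 to 619) in 4299 bp. This was also the densest wide peak, at 5756 tags per kb. It was followed on chromosome 7 from 86848985 to 86850425 by 5507 knockout tags in a control peak of 964 tags. On chromosome 1 from 167690666 to 167691822 there were 5311 knockout tags in a control peak of 1702 tags. On chromosome 6 from 31925836 to 31927357 there were 5280 knockout tags in a control peak of 927 tags. These tag totals are raw and come from libraries of different depth and peaks of different width, so they rank peaks within a list only. The other 6 of the 10 most tag-rich wide peaks held between 4753 and 5239 knockout tags, on chromosomes 14, 19, 17, 1, 9 and 6, in control peaks of 1613 to 3458 tags.

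At the sparse end, a wide peak on chromosome 13 from 80913877 to 80914992 held 25 knockout tags (16.2 to 36.9), or 22.4 per kb, in a control peak with 2283 tags over 8634 bp. One on chromosome 1 from 169075418 to 169076467 held 33 tags in a control peak of 3570 tags, and one on chromosome 9 from 99178104 to 99179359 held 66 in a control peak of 2145. The remaining pair of the 5 sparsest, on chromosomes 16 and 19, held 31 and 36 tags. The peak on chromosome 16 met no control peak. Control peaks of over 2000 tags were thus met both by some of the 5 sparsest and by some of the 5 densest wide peaks. Most of the 5 sparsest were weak calls. Their deposited false discovery rates were 24.04% on chromosome 13, 6.11% on 16, 2.06% on 19, 1.77% on 1 and 0.74% on 9. Only 8 of the 884 wide peaks had a rate above 1%.

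Nearly all wide knockout peaks lay where the control cells also had a peak. Of the 884, 871 overlapped a control peak by 1 bp or more (98.5%, 97.5 to 99.2%), against 3115 of the 3339 mid-width peaks (93.3%, 92.4 to 94.1%) and 60.3% of the whole knockout list. The difference between the width classes was 5.24 percentage points (Newcombe 95% interval 3.93 to 6.32). Within the wide peaks the share was 97.97% at 1000 to 1199 bp, 98.9% at 1200 to 1499 bp, 99.3% at 1500 to 1999 bp and 30 of 30 at 2000 bp or more. Their intervals overlapped, so no order is read among these 4 classes. The share did not climb steadily through the narrower peaks of the list. It was 51.9% for peaks of exactly 300 bp, 80.6% above 300 and under 450 bp, 48.9% from 450 to under 500 bp and 92.8% from 500 to under 700 bp.

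Wide peaks also had more tags, and in both width classes the share inside was higher at higher tag counts. In each of 5 classes by knockout tag count the wide peaks had the higher share. Under 250 tags it was 43 of 46 (93.5%, 82.1 to 98.6%) against 521 of 609 (85.6%, 82.5 to 88.2%). At 1000 to 1999 tags it was 369 of 372 (99.2%, 97.7 to 99.8%) against 886 of 914 (96.9%, 95.6 to 97.95%). At 2000 tags or more it was 205 of 206 (99.5%) against 219 of 222 (98.6%). The Newcombe interval of the difference lay above 0 in 1 of the 5 classes, that of 1000 to 1999 tags (2.26 percentage points, 0.457 to 3.69). In the other 4 it held 0, as under 250 tags (7.93 points, -3.35 to 13.2). These intervals treat peaks of the same pair of libraries as independent, so they are descriptions only.

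**Figure D2:**
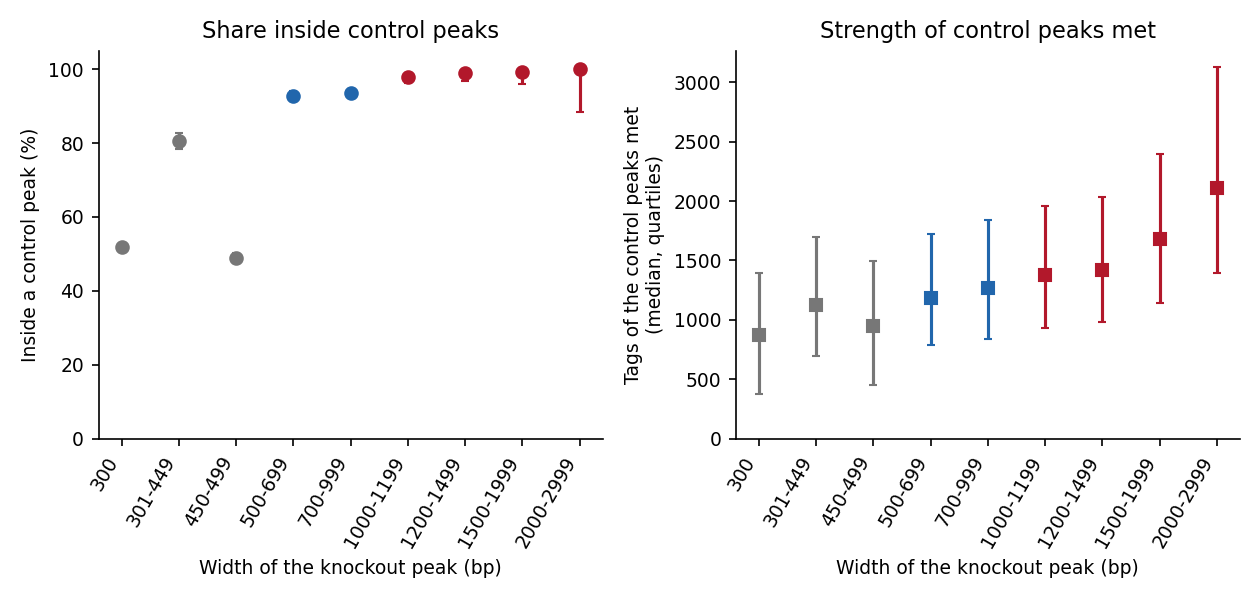
Left, percent of knockout peaks that overlap a control peak, by width of the knockout peak in bp, with exact 95% intervals. Right, median tags of the control peaks met, with quartiles. Red marks 1000 bp or more, blue mid-width and grey narrower peaks, and the red classes lie between 97.97 and 100% on the left and between 1376 and 2113 tags on the right.

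The control peaks met by wide knockout peaks were among the strongest and widest of the control list. The 871 wide peaks met 859 control peaks, which held a median of 1464 control tags (quartiles 1004 and 2070) over a median of 6903 bp (5445 and 9206 bp). The 2889 control peaks met by mid-width peaks held 1210 tags (813 and 1767) over 6284 bp (4828 and 8192 bp). Those met by a knockout peak of any width held 921 tags over 5464 bp, and the whole control list 168 tags over 2968 bp. The quartile ranges of the 2 width classes overlapped widely. Control density differed less than control tags, with a median of 202 tags per kb in the control peaks met by wide peaks, 190 in those met by mid-width peaks and 56.5 over all control peaks.

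Within the wide peaks, too, the control medians were higher for wider knockout peaks, although the quartile ranges overlapped. The control peaks met held a median of 1376 tags for knockout peaks of 1000 to 1199 bp, 1421 for 1200 to 1499 bp, 1681 for 1500 to 1999 bp and 2113 for 2000 bp or more. Their median widths were 6702, 6911, 7701 and 8308 bp. Region by region the relation was weak. Across the 870 wide peaks with exactly 1 control peak, Spearman's rho was 0.13 between the knockout and control widths and 0.15 between the knockout and control tags. These are descriptions across regions that share the same pair of libraries.

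When knockout tag count was held within a class, the control peaks met by wide peaks had the higher median of tags in 4 of 5 classes. Under 250 knockout tags the medians were 1210 for wide peaks and 1231 for mid-width peaks. At 2000 tags or more they were 1676 and 1324. A total of 110 control peaks were met by both width classes, which is 12.8% of those met by wide peaks and 3.81% of those met by mid-width peaks. These 110 held a median of 2331 tags over 9939 bp. Leaving them out of both sides, the medians were 1351 tags and 6651 bp for wide peaks and 1173 tags and 6185 bp for mid-width peaks.

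**Figure D3:**
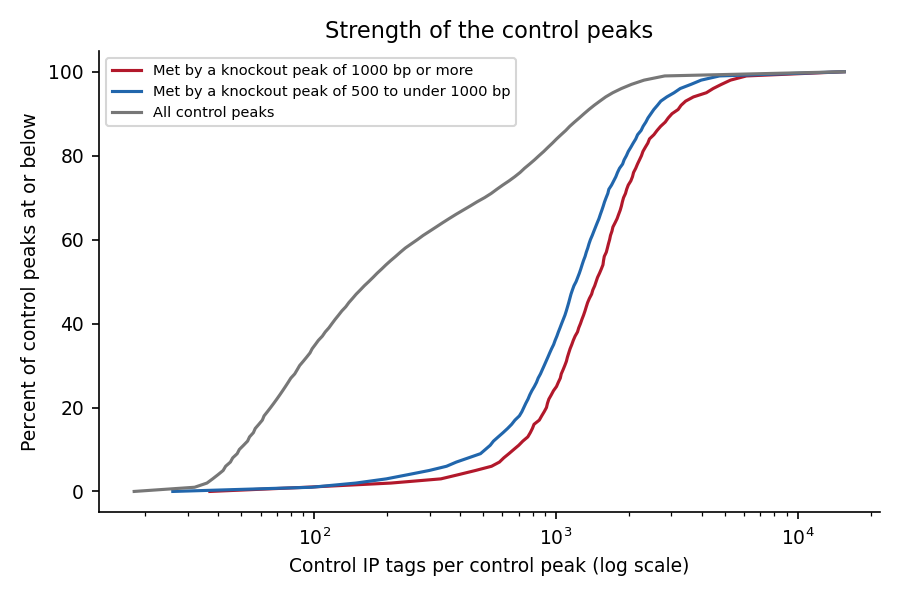
Percent of control peaks at or below a given number of control IP tags (log scale), for the 859 control peaks met by a knockout peak of 1000 bp or more (red), the 2889 met by a mid-width one (blue) and all 36677 (grey). The medians are 1464, 1210 and 168 tags.

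Counted from the control side, wide knockout peaks were found mostly at strong control peaks, though a minority of the strong ones held one. A knockout peak of any width was found in 28.4% of all control peaks. Among the 10% of control peaks with the most tags, 495 of 3668 held a wide one (13.5%, 12.4 to 14.6%) and 1290 a mid-width one (35.2%, 33.6 to 36.7%). In the next 10% these numbers were 218 (5.94%) and 806 (21.97%), and in the weakest 10% they were 2 and 7. The top 10% therefore held 57.6% (54.2 to 61.0%) of the control peaks met by wide peaks and 44.7% (42.8 to 46.5%) of those met by mid-width peaks. Control width rose with control tags, from a median of 1324 bp in the weakest 10% to 8010.5 bp in the strongest. It was not adjusted for, so strength and width are not told apart here. Of the 100 control peaks with the most tags, 46 held a wide knockout peak and 54 a mid-width one. A control peak can count in both classes, and only 1 of the 100 held no knockout peak of any width.

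By control width the share with a wide knockout peak was 0.0894% (0.0409 to 0.170%) under 2 kb, 3.57% at 4 to under 6 kb, 7.87% at 6 to under 10 kb, 14.6% at 10 to under 20 kb and 34.2% (23.9 to 45.7%) among the 79 control peaks of 20 kb or more. For mid-width peaks the same classes gave 0.298%, 13.9%, 24.4%, 34.9% and 57.0%. A wider control peak has more room for a knockout peak of any width, and this was not adjusted for.

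**Figure D4:**
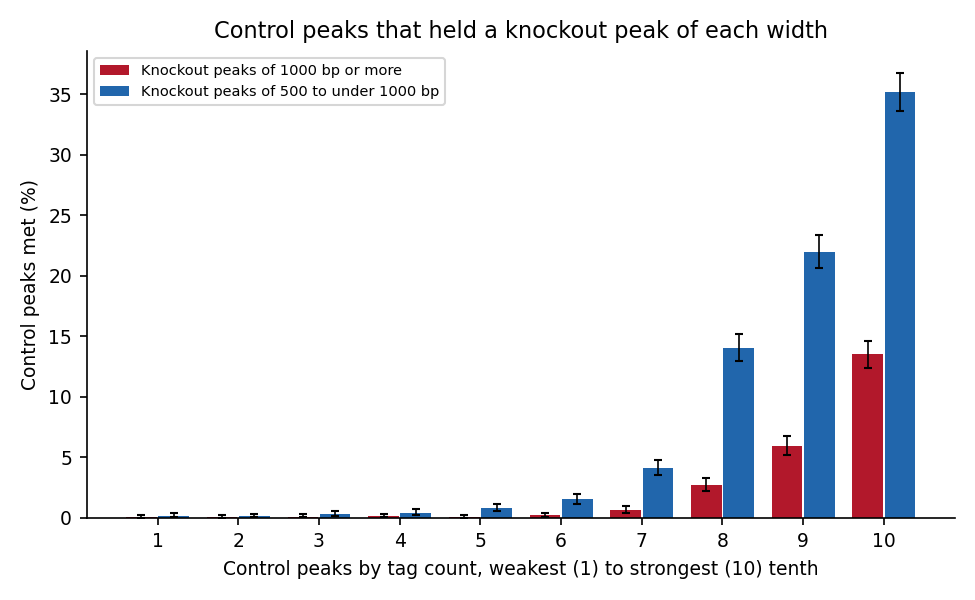
Percent of control peaks that held a knockout peak of 1000 bp or more (red) or a mid-width one (blue), with control peaks split into 10 equal groups from weakest to strongest by tags, with exact 95% intervals. Both rise to the right, to 13.5% and 35.2% in the strongest group. Median control width rises too, from 1324 bp in the weakest group to 8010.5 bp in the strongest.

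The wide knockout peaks sat centrally in the control peaks and filled a small part of them. Of the 870 that met exactly 1 control peak, 864 lay wholly within it. The knockout width was a median of 18.0% of the control width (quartiles 13.3 and 24.2%), against 11.2% (8.22 and 14.9%) for the 3115 mid-width peaks. The midpoint was in the central 20% of the control peak in 426 wide peaks (48.97%, 45.6 to 52.3%) and 1430 mid-width peaks (45.9%, 44.1 to 47.7%). It was in the outer 20% at either side in 37 (4.25%) and 194 (6.23%). A peak that lies wholly within a control peak cannot have its midpoint at the edge. Longer peaks have less room there, and this was not adjusted for. The control summit lay inside the knockout peak for 650 wide peaks (74.7%, 71.7 to 77.6%) and 1654 mid-width peaks (53.1%, 51.3 to 54.9%), and a longer peak covers more positions. From summit to summit the distances were alike, with medians of 452 bp for wide peaks (quartiles 152 and 798 bp) and 393 bp for mid-width peaks (142 and 865 bp).

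**Figure D5:**
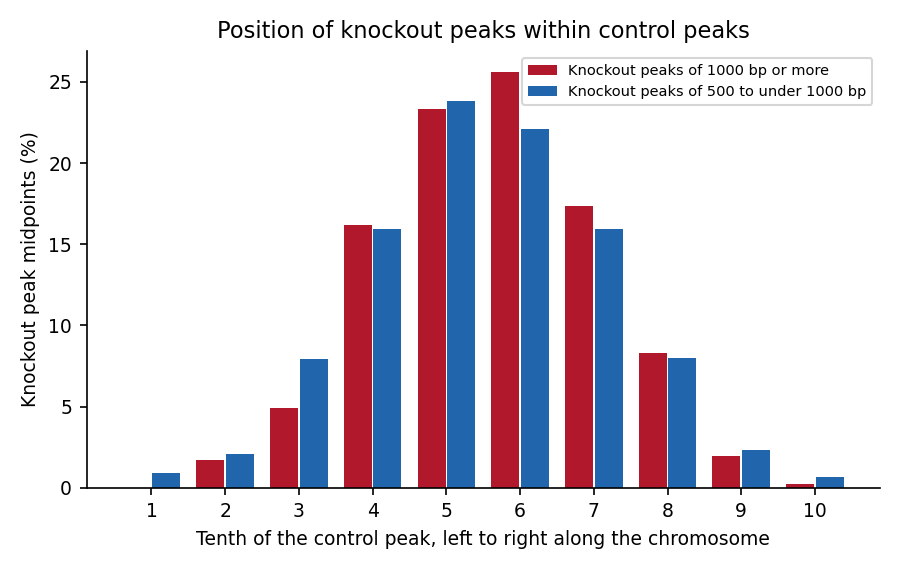
Percent of knockout peak midpoints in each of 10 equal parts of the control peak, for the 870 knockout peaks of 1000 bp or more (red) and the 3115 mid-width ones (blue) that met exactly 1 control peak. The 2 central parts hold 23.3 and 25.6% of the wide peaks, and the outermost parts hold 0 and 0.230%. Longer peaks leave less room for midpoints in the outermost parts.

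The extremes of this fit were few. The lowest share was on chromosome 5 from 14145710 to 14146938, where a wide knockout peak with 141 tags took 1.69% of a control peak of 72547 bp with 14620 tags. Others were on chromosome 11 from 62310174 to 62311285 at 2.65% and on chromosome X from 45622872 to 45623910 at 2.82%. The strongest control peak met, with 15546 tags over 38194 bp on chromosome 11, held a wide knockout peak from 65683538 to 65684885 with 872 tags and 7 narrower knockout peaks. The most complete cover was on chromosome X from 52532306 to 52533328, where a wide knockout peak with 184 tags lay wholly inside a control peak of 1333 bp with 37 control tags and covered 76.7% of it. It was followed at 74.4% by a peak on chromosome 8 from 144842718 to 144843961. On chromosome 9 the knockout peak from 70088977 to 70090185 had 88.1% of the control width, but only part of it overlapped the control peak, which began at 70089793. The 5 weakest control peaks met had 37 to 75 tags. They include those met by the chromosome X peaks of 1023 bp that began at 52259366, 52532306 and 52545200. Values at these same-width peaks are uncertain, because how tags that match several places were assigned is not stated. Another of the 5, on chromosome 14, held 51 control tags and met a knockout peak from 65673441 to 65674554 with 3122 tags.

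Most control peaks met by a wide knockout peak held no other knockout peak. This was so for 517 of the 859 (60.2%, 56.8 to 63.5%), and the other 342 held 2 to 8. Among control peaks met by mid-width peaks it was 1628 of 2889 (56.4%, 54.5 to 58.2%). Over the whole knockout list, 14231 peaks met 10427 control peaks. The share of those 10427 with exactly 1 knockout peak was not worked out, so 60.2% is not read as a trait of wide peaks. Exactly 13 control peaks held 2 wide knockout peaks. In the strongest of these, on chromosome 11 from 63990066 to 64025051 with 10595 control tags, the wide peaks held 1693 and 1571 tags and lay 3568 bp apart. The most uneven of them was on chromosome 19, where wide peaks of 115 and 2312 tags lay 270 bp apart in a control peak of 1444 tags. These 2 were picked out after their values were seen. The other 858 wide peaks had a median of 504880 bp to the nearest other wide peak. Over all 884 it was 482723 bp, against 112354 bp between the 3339 mid-width peaks. Spacing depends on the number of peaks, and this was not adjusted for. Of the 24 wide peaks within 10 kb of another, 22 were in these 13 control peaks.

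Only 13 wide knockout peaks met no control peak, between 3196 and 449561 bp away from the nearest (median 19870 bp). For the 224 mid-width peaks that met none the median was alike, at 18242.5 bp. The most tags among the 13 wide peaks, 2480 (2383 to 2580) over 1914 bp, were on chromosome 11 from 101453075 to 101454988, 135355 bp from any control peak. It was followed by chromosome 1 from 206744720 to 206745971 with 1649 tags. Chromosome 4 had 1579 tags from 49515104 to 49516258, and chromosome 2 had 1371 tags from 187716670 to 187717731. The other 9 held between 31 and 933 tags. Of these 4 the first, second and last had deposited fold enrichments of 628 to 648, and the one on chromosome 4 had 27.7. The fold enrichment is the authors' ratio of IP tags to local input background. It was 3.69 on chromosome 16 from 46394389 to 46395476 despite 933 tags. A peak of 247 tags on chromosome 9 from 67791279 to 67792367 had a fold enrichment of 5.40. Fold enrichments under 10 were found for 4 of the 884 wide peaks, and 3 of those 4 were among the 13. Of the 13, those beginning at 49515104, 67791279 and 46394389 lay within 3 Mb of the longest stretch without a peak on their chromosome. These stretches, free of peaks in both lists, were chosen after seeing the data.

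Some wide peaks within 1 Mb of each other had exactly the same width. On chromosome X, peaks of 1164 bp began at 52238766 and 52511717 with 223 and 230 tags, and peaks of 1023 bp began at 52259366, 52532306 and 52545200 with 194, 184 and 154 tags. The first 2 starts of each width were 272951 and 272940 bp apart. On chromosome 15, peaks of 1514 bp began at 82646754 and 83023241 with 381 and 371 tags. On chromosome 6, peaks of 1253 bp began at 56911729 and 56955227 with 1043 and 1103 tags. A further pair of 1000 bp on chromosome 11, 199224 bp apart, had unlike tag counts of 299 and 1093. How tags that match several places were assigned is not stated by the labels or file headers, so the values at the chromosome X, 15 and 6 sets are uncertain. These sets were looked for after the data were examined.

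Wide peaks were found on all 23 of chromosomes 1 to 22 and X. They made up 5.63% (4.48 to 6.96%) of the knockout peaks on chromosome 17, 4.93% (3.53 to 6.68%) on chromosome 14 and 4.82% (3.82 to 5.999%) on chromosome 19. The lowest shares were 0.905% (0.110 to 3.23%) on chromosome 21, with 2 wide peaks, 1.59% (0.586 to 3.43%) on chromosome 18 and 2.04% (0.883 to 3.97%) on chromosome 13. Mid-width peaks made up 16.5, 15.7 and 17.6% on chromosomes 17, 14 and 19. On chromosomes 21, 18 and 13 they made up 8.14, 8.22 and 15.8%, so much of this order was shared by the mid-width class. Across the 23 chromosomes, Spearman's rho between the share of wide peaks and the median control tags per control peak was 0.75. It is a description over chromosomes of the same pair of libraries, and was not computed for mid-width peaks. On 14 of the 23 chromosomes every wide peak met a control peak. The longest stretch of each chromosome without a peak in either list was also examined, after seeing the data. The highest share of wide peaks near one was on chromosome 1, around the stretch from 121373208 to 142593032, where 9 of the 73 knockout peaks within 3 Mb were wide (12.3%, 5.80 to 22.1%). On 4 of the 23 chromosomes no wide peak lay that near. Over all 23 the share was 4.40% (3.28 to 5.76%), and without chromosome 1 it was 3.85% (2.78 to 5.19%), against 3.72% (3.48 to 3.98%) elsewhere.

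On either side of the width limit the values overlapped. Of 7 wide peaks of exactly 1000 bp, which held 299 to 2550 tags, the 3 with the most tags, on chromosomes 17, 14 and 16, held 2550, 2225 and 1378 tags and met control peaks of 828, 2544 and 924 tags. Of 7 knockout peaks just 1 bp narrower, which held 250 to 2438 tags, the 3 with the most tags, on chromosomes 6, 13 and 6, held 2438, 1266 and 1179 tags and met control peaks of 1363, 1473 and 1278 tags.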

How the data were processed

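H3K4me3 ChIP and input libraries, 1 of each per genotype (ARID1A knockout and control), were grouped by title. Per the labels' protocols, chromatin was cut with micrococcal nuclease. Bowtie2 2.2.4 and MACS 1.4.3 are named in the submitters' processing notes, with the hg19 build. Per the file headers, MACS called each IP against its own input with a p cutoff of 0.0001, a fragment length of 300 bp and a tag size of 150 bp, and scaled the larger library to the smaller. The header of the knockout list calls its library K6, so only the name of the list ties it to the knockout. The deposited counts are whole IP tags per peak. The deposited score is the negative log10 of the MACS p multiplied by 10, with 3100 or more for 828 of the 884 wide peaks, and was not used to rank. The deposited fold enrichment is a ratio to local input background, on a scale of its own in each list. False discovery rates were deposited in percent. Positions are in bp, 1-based.

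Python 3.11.15 was used with scipy 1.17.1, numpy 2.4.6, matplotlib 3.10.9 and pandas 2.3.3. Peaks sharing at least 1 bp were counted as overlapping, checked against bedtools 2.31.1 and, for 400 simulated peaks, against a direct search with 0 mismatches. Each control peak met was counted once. Shares have exact Clopper-Pearson 95% intervals and tags exact Poisson intervals. No test of the genotype was made. The regions and the comparisons were chosen with earlier results of these data known. Regions named are those with the most extreme widths, tags, tags per kb, control tags and shares of control width, those outside control peaks with the most tags, and those nearest the width limit. Alternatives were other width limits, a false discovery rate of 1%, other overlap criteria, merging, and the chromosome 1 window kept. Gene starts and gene lists were not compared, because the annotation at hand was of another build.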

Additional observations from a re-analysis of the deposited data

How the results depend on the processing

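Of 29 alternative values for the number of wide peaks, their tags per kb, their share inside control peaks and the tags and width of the control peaks met, 22 stayed within 1.5 times the count or within the exact 95% interval of the share or median. With a limit of 1200 bp there were 441 wide peaks, and the control peaks met had a median width of 7190 bp. Merging knockout peaks within 500 bp first gave 1534 peaks of 1000 bp or more. With a false discovery rate of 1% or less in both lists, 97.4% of wide peaks lay inside control peaks, against 92.7% of mid-width peaks, since fewer control peaks remained. Among alternatives added after the data were examined, control peaks with no mid-width knockout peak had medians of 1351 tags and 6651 bp, and wide peaks with at most 2 tags per bp had a median of 954 tags per kb. For the medians the change comes from the peaks left out. No paired analysis was possible because each genotype has 1 library. The alternatives for gene starts were not run. Other depths were not tried, and the variation between cultures was not measured.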
